A study of Arabidopsis thaliana with 12 samples.

Results

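The NLR genes described here encode intracellular immune receptors of Arabidopsis thaliana that carry a nucleotide-binding domain and leucine-rich repeats. They were chosen by locus code as a list of 37 named receptors, from RPM1 and LAZ5 to the SNC1 cluster, the paired receptors and the helper receptors. The deposited expression table of 23916 genes held 35 of the 37, and 33 of those passed the filter on low values, which asked for 3 or more of the 12 libraries at 1 TPM or above. CHS1 (AT1G17610) and TN2 (AT1G17615) were not analysed here, and RFL1 (AT1G12210) and SOC3 (AT1G17600) were measured but fell under the filter. RNA was sequenced from whole seedlings at 10 days, raised at 22 °C under a day of 16 h light and 8 h dark, in 4 genotypes with 3 libraries each. Col is the wild type. T31A is the label for an H3.3 knockout, written h3.3ko, with an HTR5 copy in which alanine replaces a threonine of histone H3.3, and K36A for the same knockout with an HTR5 copy in which alanine replaces the lysine that EFS methylates. The mutant efs is named for the methyltransferase gene EFS, and its label gives no H3.3 knockout. Libraries of the knockout with a normal HTR5 copy were not analysed here, and in T31A and K36A the knockout, the added copy and the substitution cannot be told apart. The promoter of the HTR5 copy, the number of independent lines and the alleles are not given in the sources used here. Nor do the labels say whether libraries of a group came from separate cultures, so p-values measure the spread between these libraries, which may be technical.

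As background, most NLR proteins act as sensors, which recognise a pathogen effector directly or watch a host protein that effectors modify. Sensors are grouped by their N-terminal part into coiled-coil (CC) and Toll/interleukin-1 receptor (TIR) types, and another type with an RPW8-like domain serves as helpers downstream of many sensors. TIR-type receptors signal through EDS1 and its partners to the helpers of the ADR1 and NRG1 families, while several CC-type receptors form calcium-permeable channels themselves. Plants keep NLR transcripts at low levels, since too much receptor can trigger autoimmunity. EFS, a histone methyltransferase also called SDG8 or LAZ2, was found in a screen that also uncovered the TIR-type receptor gene LAZ5.

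Reads recovered from the table numbered 17621000 to 34098032 per library, and a tested NLR gene had 38 to 5776 reads in a library, with at least 100 in every library for 28 of the 33. The targeted genes were read first. HTR8 stood at 129.7 ± 19.8 TPM in Col (mean ± SD, n = 3) and at 16.5 ± 3.52 in T31A and 20.7 ± 2.31 in K36A, HTR4 went from 276 ± 37.4 to 192 ± 9.05 and 167 ± 10.7, and HTR5 rose from 329 ± 40.7 to 653 ± 25.1 and 591 ± 3.26, with native and added copies counted together. In efs, HTR8 was at 219 ± 4.98, HTR5 at 394 ± 7.88 and HTR4 at 262 ± 6.92 TPM, and EFS itself at 15.4 ± 1.04 against 15.5 ± 1.91 in Col, so its level checked no label and every value for efs is that of the libraries labelled efs. Col replicate 1 had long transcripts 0.40 log2 units above short ones relative to the mean of all libraries, where the other 11 libraries lay between -0.19 and 0.06. NLR transcripts are long, with a median of 3957 bases against 1722 over all tested genes, and 26 of the 33 had their highest Col value in replicate 1 (54.0% of all tested genes did). Green shoot markers were all detected and their summed level went from 25703 to 27202 TPM in Col to 24216 to 25382 in T31A, 22451 to 23498 in K36A and 20167 to 20512 in efs, with 5, 6 and 8 of 8 called lower. The summed root markers lay at 162 to 258 TPM in Col, 151 to 166 in T31A, 270 to 318 in K36A and 224 to 243 in efs, with 4 of 8 tested lower in T31A, 5 higher in K36A and 1 higher in efs, and none of the 10 root markers was at 0 throughout. The summed guard cell markers went from 57.8 to 73.9 TPM in Col to 50.5 to 51.9 in T31A, 52.0 to 54.9 in K36A and 44.2 to 46.9 in efs, with 1, 1 and 2 of 3 called lower. The summed vascular markers lay at 167 to 184 TPM in Col, 150 to 164 in T31A, 156 to 173 in K36A and 170 to 175 in efs. Of these 4 genes, 1 was called lower in T31A and none in K36A or efs. The part of these differences in the results on NLR genes was not tested, and in whole seedlings fewer cells of a type and less RNA per cell cannot be told apart.

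More NLR genes were called lower than higher in each mutant, with the highest count in efs. Log2(TPM + 1) was compared with limma, with p-values adjusted by the Benjamini-Hochberg method over 19984 tested genes, and the threshold for a call was an adjusted p under 0.05. In efs, 19 of the 33 tested NLR genes were lower than in Col and 2 were higher, while 17.4% of all tested genes were lower and 31.4% higher. In K36A, 10 were lower and 3 higher, against 8.90% and 22.6% of all tested genes. In T31A, 6 were lower and 2 higher, against 11.1% and 15.7%. The NLR genes had a median log2 difference from Col of -0.13 (T31A), -0.12 (K36A) and -0.43 (efs), beside 0.04, 0.09 and 0.12 over all tested genes. With factors set by the median of ratios, which bring the all-gene medians to 0.00, 0.00 and 0.02, the medians of the NLR genes were -0.18, -0.22 and -0.53. Under that scaling the split of calls in K36A was 16 lower and 1 higher, where 46.3% of all calls were higher in place of 71.7% as deposited. For all genes in T31A and efs, 45.0% and 47.4% of calls were higher in place of 58.5% and 64.4%, while the NLR genes were at 7 lower and 2 higher in T31A and 20 lower and 2 higher in efs. The count for T31A rested on few libraries, since 8 called genes became 5 without T31A replicate 1 or 2 and 4 without T31A replicate 3. In K36A, a fit of the 6 libraries of the 2 groups alone called 7 in place of 13. Without Col replicate 1, T31A had 4 lower and 3 higher, K36A 8 lower and 5 higher, and efs 19 lower and 5 higher. In that setting 9.97%, 8.68% and 16.7% of all tested genes were lower and 18.4%, 27.9% and 35.0% higher, so the share of NLR genes lower in T31A, 12.1%, was near that of all genes. The 3 comparisons share the Col libraries, and the list of NLR genes was chosen with earlier results of these data known.

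**Figure D1:**
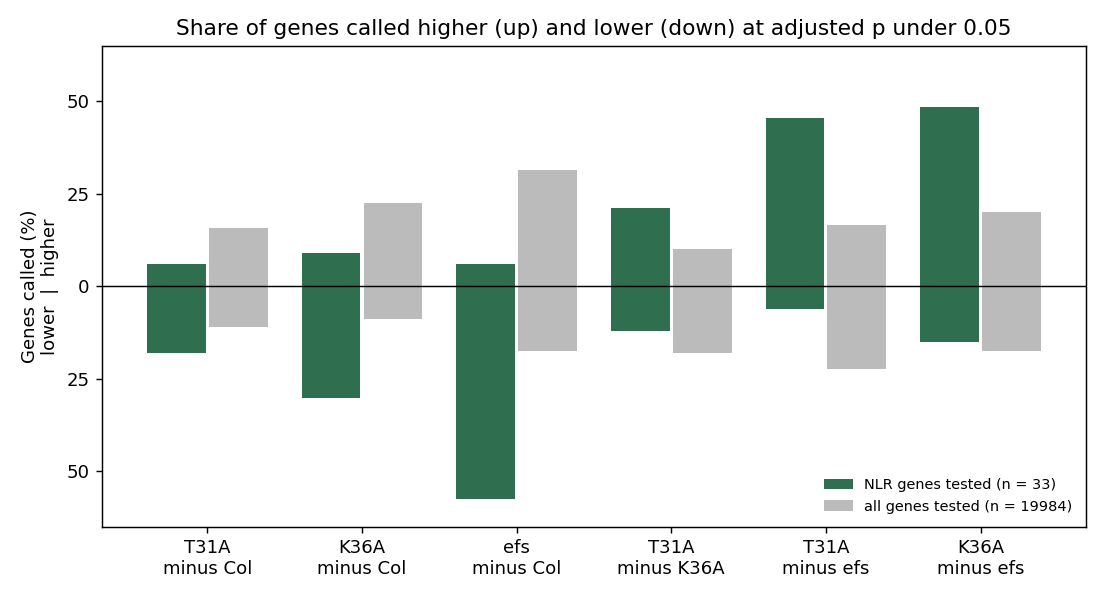
Share of genes, in percent, called higher (upward bars) and lower (downward bars) at an adjusted p under 0.05 in each of the 6 comparisons, for the 33 tested NLR genes (green) and all 19984 tested genes (grey). In efs minus Col the NLR bar reaches 57.6% downward and 6.06% upward, and the grey bar 17.4% and 31.4%.

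By N-terminal class, calls went to all 3 types. Of 19 tested TIR-type genes, T31A had 5 called lower, K36A 6 and efs 13, with none higher. Of 9 CC-type genes, 1 was lower in T31A, 3 were lower and 1 higher in K36A, and 4 were lower and 1 higher in efs. Among the 5 RPW8-type helpers, 2 were higher in T31A, 2 were higher and 1 lower in K36A, and 1 was higher and 2 lower in efs. Of all tested genes, 11.1%, 8.90% and 17.4% were lower and 15.7%, 22.6% and 31.4% higher in T31A, K36A and efs. The share of CC-type genes lower in T31A, 11.1%, is that of all genes. Classes of 9 and 5 genes are small, and whether the classes differ was not tested. The members called lower in all 3 mutants were LAZ5, CHS3 and TAO1. By contrast, 7 members were called in no mutant, namely RPS2, RPP7, RPS4, CSA1, DSC1, AT4G16900 and AT4G16920.

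**Figure D2:**
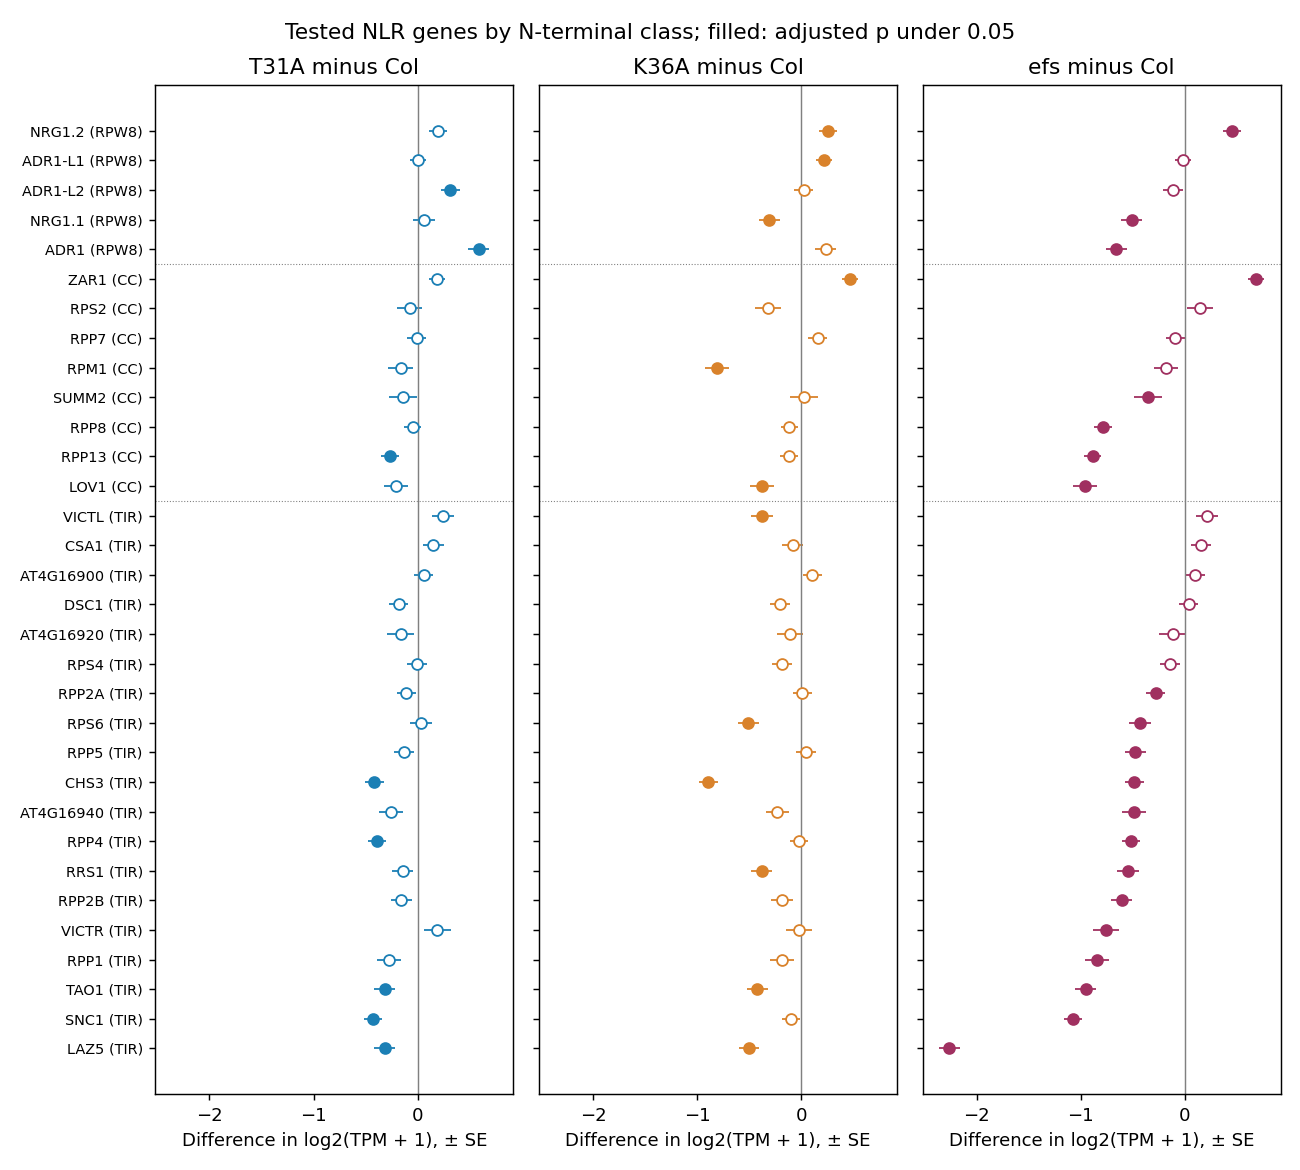
Difference in log2(TPM + 1) from Col, with its standard error, of tested NLR genes in T31A, K36A and efs, all but 1 of the 33 shown. Genes are grouped by N-terminal class, filled points are called, and in efs the points run from -2.26 for LAZ5 to 0.69 for ZAR1.

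Levels in Col, rescaled from the gene span to the longest transcript so that genes can be compared per length, ran from 102 TPM for SNC1 and 100.2 for RPP8 to 0.529 for SOC3 and 0.423 for RFL1. RPP4 followed at 89.7, RPP7 at 63.4 and RPP5 at 60.997, all receptors for downy mildew. The helpers spread from 4.001 for ADR1 to 41.5 for ADR1-L1, and RPM1 was at 6.24.

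LAZ5 (AT5G44870), a TIR-type receptor known for the cell death of the acd11 mutant, had the largest fall of any member. LAZ5 had TPM values of 21.6, 18.2 and 20.8 (Col), 16.1, 17.1 and 14.7 (T31A), 15.3, 12.4 and 14.2 (K36A), and 3.18, 3.78 and 3.27 (efs), with libraries given here and below in the order of replicates 1, 2 and 3. The efs values lay far below those of every other group, the T31A and K36A values overlapped each other, and both lay under the lowest Col value. The log2 difference from Col was -2.26 (SE 0.10, adjusted p = 2.7e-10) in efs, a mean 5.92-fold lower, -0.50 (SE 0.10, adjusted p = 0.00181) in K36A and -0.32 (SE 0.10, adjusted p = 0.0287) in T31A. Efs also differed from both histone lines, by 1.95 (SE 0.10, adjusted p = 3.4e-09) for T31A minus efs and 1.76 (SE 0.10, adjusted p = 7e-09) for K36A minus efs. The LAZ5 call in T31A was lost without Col replicate 1, Col replicate 3, T31A replicate 1 or T31A replicate 3 (adjusted p = 0.0751, 0.0773, 0.0682 and 0.115, in that order). The gene lies at chr5:18114461-18119006 on the plus strand of TAIR10.1, with 5 coding exons, and 6.18% of its exonic windows of 64 bases occur again in the genome. The 250 bases directly upstream of its annotated start, from RefSeq (TAIR10.1, chr5:18114211-18114460, plus strand), are shown because LAZ5 carries the largest difference, and the capitals mark the match to TTGAC, the core of the W-box bound by WRKY factors, read here on the other strand.
LAZ5 upstream: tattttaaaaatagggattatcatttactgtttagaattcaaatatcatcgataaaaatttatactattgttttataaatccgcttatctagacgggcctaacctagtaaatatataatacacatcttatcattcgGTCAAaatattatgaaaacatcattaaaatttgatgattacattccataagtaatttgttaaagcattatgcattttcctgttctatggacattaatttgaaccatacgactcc

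Several further TIR-type sensors fell in efs with smaller or uncalled differences in the histone lines. TAO1 had TPM values of 25.1, 27.01 and 26.02 (Col), 20.5, 21.4 and 20.3 (T31A), 20.7, 15.9 and 21.4 (K36A), and 12.8, 11.9 and 14.3 (efs). TAO1 (AT5G44510) contributes to recognition of a bacterial effector. The efs libraries were the lowest and both histone lines lay under every Col value. Its log2 difference from Col was -0.95 (SE 0.10, adjusted p = 2.9e-06) in efs, -0.42 (SE 0.10, adjusted p = 0.00621) in K36A and -0.32 (SE 0.10, adjusted p = 0.0328) in T31A. The TAO1 call in T31A was lost without Col replicate 2, Col replicate 3, T31A replicate 1, T31A replicate 2 or T31A replicate 3 (adjusted p = 0.0874, 0.0648, 0.087, 0.0611 and 0.091, in that order). RPP1 (AT3G44480), a downy mildew receptor, stood at 35.3 ± 1.78 TPM (Col), 29.1 ± 3.11 (T31A), 31.3 ± 5.84 (K36A) and 19.2 ± 0.990 (efs), with a difference of -0.85 (SE 0.11, adjusted p = 3.2e-05) in efs and no call in the histone lines. It is uncertain, since 38.9% of its exonic windows recur in the genome and it overlaps AT3G44485. DSC1 (AT4G12010), a receptor tied to autoimmunity of the camta3 mutant, was called in no comparison, at 7.94 ± 0.603, 6.87 ± 0.2001, 6.77 ± 0.663 and 8.17 ± 0.452 TPM in Col, T31A, K36A and efs. TAO1 and DSC1 each overlap another annotated gene, and the sources used here do not say whether counting used strand.

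RPM1 (AT3G07040), a CC-type receptor that watches RIN4, fell in K36A. RPM1 had TPM values of 6.68, 6.34 and 5.69 (Col), 5.09, 6.45 and 4.91 (T31A), 3.45, 2.71 and 3.26 (K36A), and 5.62, 5.68 and 4.82 (efs). All 3 K36A values lay below those of the other 9 libraries, and the T31A and Col values overlapped. The difference from Col was -0.81 (SE 0.12, adjusted p = 0.00018) in K36A, a mean 1.98-fold lower, -0.18 (SE 0.12, adjusted p = 0.209) in efs and -0.16 (SE 0.12, adjusted p = 0.33) in T31A, the latter 2 not called. Tested directly, K36A was lower than both, with 0.64 (SE 0.12, adjusted p = 0.0009) for T31A minus K36A and -0.62 (SE 0.12, adjusted p = 0.00072) for K36A minus efs. Each of these 3 K36A calls held when any library was left out. RPM1 has a single coding exon at chr3:2225855-2229555 on the minus strand (TAIR10.1), no repeated 64-base window, and an overlap with the annotated gene AT3G07050. RPS2 (AT4G26090), which also watches RIN4, was at 11.5 ± 2.65 TPM (Col), 10.7 ± 0.814 (T31A), 8.88 ± 0.734 (K36A) and 12.6 ± 0.725 (efs). It was called against Col in no mutant (-0.32, SE 0.12, adjusted p = 0.065 in K36A), and K36A was lower than efs, with -0.47 (SE 0.12, adjusted p = 0.00841) for K36A minus efs. RPS2 overlaps other annotated genes. RIN4 itself, the guarded protein, was at 27.7 ± 2.04, 25.03 ± 2.16, 28.4 ± 0.582 and 27.6 ± 1.19 TPM in the same order of groups and not called against Col.

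ZAR1 (AT3G50950), a CC-type receptor that assembles into a channel and reads kinases through pseudokinase partners, rose. ZAR1 had TPM values of 34.8, 30.8 and 33.2 (Col), 37.3, 40.6 and 35.1 (T31A), 45.6, 42.3 and 50.1 (K36A), and 51.6, 52.9 and 56.2 (efs). The groups did not overlap and stood in the order Col, T31A, K36A and efs. The difference from Col was 0.69 (SE 0.08, adjusted p = 6.2e-06) in efs, 0.47 (SE 0.08, adjusted p = 0.00057) in K36A and 0.19 (SE 0.08, adjusted p = 0.0949) in T31A, where it was not called. T31A was lower than efs, with -0.50 (SE 0.08, adjusted p = 0.00017) for T31A minus efs. The smaller steps were -0.28 (SE 0.08, adjusted p = 0.0155) for T31A minus K36A and -0.22 (SE 0.08, adjusted p = 0.0417) for K36A minus efs. The ZAR1 call for T31A minus K36A was lost without T31A replicate 1, T31A replicate 3 or K36A replicate 3 (adjusted p = 0.051, 0.0755 and 0.0701, in that order). The ZAR1 call for K36A minus efs was lost without K36A replicate 1, K36A replicate 2, efs replicate 1, efs replicate 2 or efs replicate 3 (adjusted p = 0.0987, 0.163, 0.0581, 0.0815 and 0.146, in that order), and with a replicate block (0.0548). ZAR1 overlaps 2 annotated genes. Among its partners, PBL2 rose in efs (0.63, SE 0.13, adjusted p = 0.0012), RKS1 rose in T31A (0.37, SE 0.09, adjusted p = 0.00664) and in efs (0.25, SE 0.09, adjusted p = 0.0277), and ZED1 was not called against Col.

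Of 3 CC-type genes for downy mildew resistance, RPP13 and RPP8 fell in efs and RPP7 was not called there. RPP13 had TPM values of 65.4, 53.4 and 56.1 (Col), 49.3, 47.7 and 47.4 (T31A), 51.6, 48.9 and 60.5 (K36A), and 29.99, 32.3 and 30.7 (efs). This gene, AT3G46530, is known for allelic variety among accessions. The efs libraries were lowest and the T31A libraries lay between them and Col, while K36A overlapped Col. Its difference from Col was -0.89 (SE 0.09, adjusted p = 1.2e-06) in efs and -0.27 (SE 0.09, adjusted p = 0.033) in T31A. The RPP13 call in T31A was lost without Col replicate 1 and without T31A replicate 1, 2 or 3 (adjusted p = 0.0972, 0.064, 0.0884 and 0.0905, in that order), and with a fit of the 6 libraries alone (0.0562). RPP8 (AT5G43470) stood at 74.4 ± 6.83, 71.9 ± 4.50, 68.8 ± 7.07 and 42.6 ± 1.02 TPM in Col, T31A, K36A and efs, a difference of -0.79 (SE 0.08, adjusted p = 2.7e-06) in efs alone among the calls against Col, and 9.08% of its windows recur in the genome. RPP7 (AT1G58602), whose gene spans 19695 bases against a longest transcript of 5116, was at 16.5 ± 0.757, 16.4 ± 0.886, 18.6 ± 2.40 and 15.4 ± 0.818 TPM and not called against Col. TPM was scaled by the span with introns and so gives RPP7 a lower level than its transcript length would. In RPP7 11.3% of the windows recur in the genome, and RPP13, RPP8 and RPP7 each overlap another annotated gene.

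LOV1 (AT1G10920), the CC-type receptor behind sensitivity to the fungal toxin victorin, fell in K36A and efs. LOV1 had TPM values of 10.14, 9.98 and 9.97 (Col), 9.14, 8.70 and 7.89 (T31A), 8.39, 6.08 and 8.16 (K36A), and 4.32, 5.41 and 4.398 (efs). The Col values nearly coincided and lay above all mutant values, and the efs values were the lowest. The difference was -0.96 (SE 0.12, adjusted p = 1e-05) in efs, -0.38 (SE 0.12, adjusted p = 0.0219) in K36A and -0.21 (SE 0.12, adjusted p = 0.208) in T31A, not called. The LOV1 call in K36A was lost without Col replicate 2 or K36A replicate 2 (adjusted p = 0.0501 and 0.0921, in that order), and with a fit of the 6 libraries alone (0.0561). SUMM2 (AT1G12280), which monitors a MAP kinase cascade, was at 7.83 ± 1.44, 6.95 ± 0.589, 7.99 ± 1.27 and 5.87 ± 0.498 TPM, with a called difference in efs of -0.35 (SE 0.13, adjusted p = 0.0407) and overlapping groups. The SUMM2 call in efs was lost without Col replicate 2, Col replicate 3, efs replicate 1 or efs replicate 2 (adjusted p = 0.107, 0.166, 0.0849 and 0.127, in that order), and with no filter on low values or a fit of the 6 libraries alone (0.0592 and 0.0615). RFL1, a CC-type receptor gene, was under the filter, with 0.243 to 0.524 TPM in the 12 libraries, and was not tested in the main fit. LOV1, SUMM2 and RFL1 each overlap another annotated gene.

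**Figure D3:**
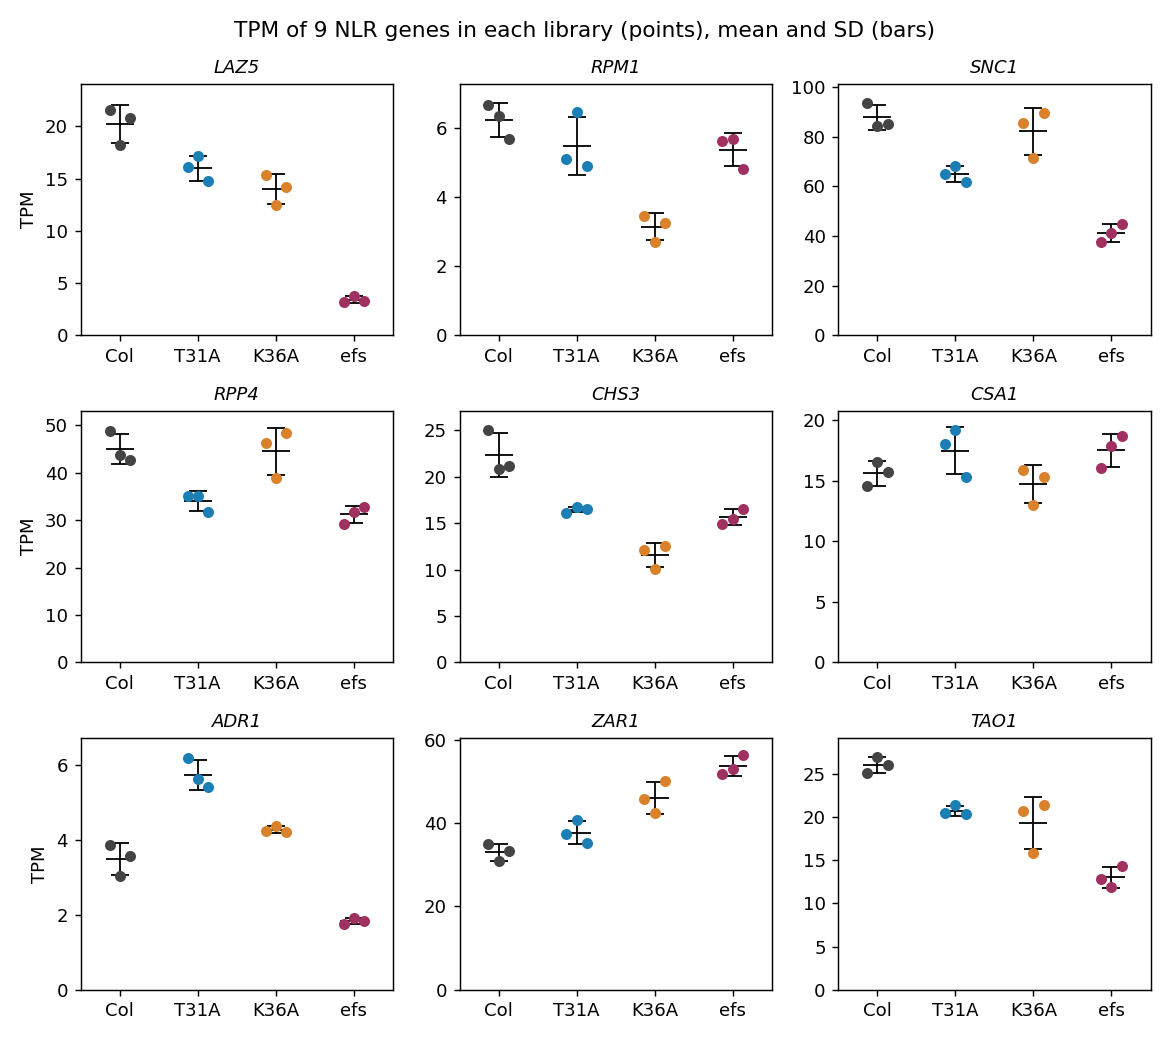
TPM of 9 NLR genes in each library (points), with the group mean and SD (black, n = 3), in Col, T31A, K36A and efs. LAZ5 in efs lies at 3.18 to 3.78 TPM against 18.2 to 21.6 in Col, RPM1 in K36A at 2.71 to 3.45 against 5.69 to 6.68, and ZAR1 in efs at 51.6 to 56.2 against 30.8 to 34.8.

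In the SNC1 cluster on chromosome 4, neighbouring, related genes were not all called in the same mutants. Whether these genes differ in their response was not tested. SNC1, RPP4, RPP5 and 3 further TIR-type genes lie there on the same strand, and their coding sequences share 76.0% to 93.7% of aligned bases. Printed below are the 60 coding bases that open with the P-loop, the nucleotide-binding motif of these proteins, from RefSeq (TAIR10.1, minus strand). They do not stand for the whole genes, since SNC1 and RPP4, alike in most of these bases, share 80.5% of all aligned coding bases. The stretches lie at chr4:9504686-9504745 for SNC1, chr4:9491844-9491903 for RPP4, chr4:9543510-9543569 for RPP5, chr4:9515714-9515773 for AT4G16900, chr4:9524851-9524910 for AT4G16920 and chr4:9536787-9536846 for AT4G16940. Capitals mark the bases that differ from SNC1, which number 4, 2, 9, 4 and 5 from RPP4 to AT4G16940, and the stretch is shown because it holds long runs in which the genes do not differ.
SNC1: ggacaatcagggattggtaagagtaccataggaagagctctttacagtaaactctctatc
RPP4: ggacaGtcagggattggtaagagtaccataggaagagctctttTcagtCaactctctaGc
RPP5: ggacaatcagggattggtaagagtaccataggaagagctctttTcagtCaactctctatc
AT4G16900: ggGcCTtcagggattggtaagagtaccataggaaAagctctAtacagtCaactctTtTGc
AT4G16920: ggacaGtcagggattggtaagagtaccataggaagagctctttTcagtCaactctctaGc
AT4G16940: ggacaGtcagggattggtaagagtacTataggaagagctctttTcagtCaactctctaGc
The share of exonic windows of 64 bases that recur in the genome was 14.6% in SNC1, 23.2% in RPP4, 36.9% in RPP5, 7.09% in AT4G16900, 35.5% in AT4G16920 and 30.6% in AT4G16940. The sources used here do not say how shared reads were assigned, so each gene of the cluster is uncertain taken alone. RPP5 and AT4G16920 also overlap other annotated genes.

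SNC1 (AT4G16890), whose gain-of-function allele gives constitutive defence, was lower in efs and T31A. SNC1 had TPM values of 93.7, 84.4 and 85.3 (Col), 65.1, 68.4 and 61.6 (T31A), 85.5, 71.6 and 89.6 (K36A), and 37.6, 41.4 and 44.7 (efs). The efs values were the lowest, T31A lay between efs and Col, and K36A overlapped Col. The difference from Col was -1.07 (SE 0.09, adjusted p = 2e-07) in efs, -0.43 (SE 0.09, adjusted p = 0.00251) in T31A and -0.10 (SE 0.09, adjusted p = 0.422) in K36A. RPP4 had TPM values of 48.7, 43.7 and 42.7 (Col), 35.2, 35.2 and 31.7 (T31A), 46.3, 38.9 and 48.4 (K36A), and 29.1, 31.7 and 32.8 (efs). RPP4 (AT4G16860), a downy mildew receptor, overlapped Col in K36A and lay under Col in T31A and efs, with -0.39 (SE 0.09, adjusted p = 0.00419) in T31A and -0.51 (SE 0.09, adjusted p = 0.00023) in efs. Tested directly, T31A was below K36A in RPP4, with -0.37 (SE 0.09, adjusted p = 0.0053) for T31A minus K36A, a call that held when any library was left out, and in SNC1, with -0.33 (SE 0.09, adjusted p = 0.0119). The SNC1 call for T31A minus K36A was lost without T31A replicate 3, K36A replicate 1 or K36A replicate 3 (adjusted p = 0.0537, 0.0523 and 0.0548, in that order).

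RPP5 had TPM values of 51.8, 48.1 and 47.5 (Col), 47.2, 47.7 and 39.97 (T31A), 53.95, 42.5 and 56.5 (K36A), and 34.4, 34.7 and 36.1 (efs). RPP5 (AT4G16950), the remaining named downy mildew receptor of the cluster, was below every other library in efs, while T31A and K36A overlapped Col. Its difference from Col was -0.47 (SE 0.10, adjusted p = 0.00112) in efs. AT4G16940 fell in efs as well, from 1.44 ± 0.110 TPM to 0.734 ± 0.0469 (-0.49, SE 0.11, adjusted p = 0.00276), at 39 to 113 reads per library. AT4G16900 (14.6 ± 2.06 TPM in Col and 15.6 ± 1.18 in efs) and AT4G16920 (1.29 ± 0.179 and 1.11 ± 0.0606) were called in no comparison. In all, 2 of the 6 genes were lower in T31A, none was called in K36A and 4 were lower in efs. Of all tested genes, 11.1%, 8.90% and 17.4% were lower in T31A, K36A and efs, beside which 6 genes are few.

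**Figure D4:**
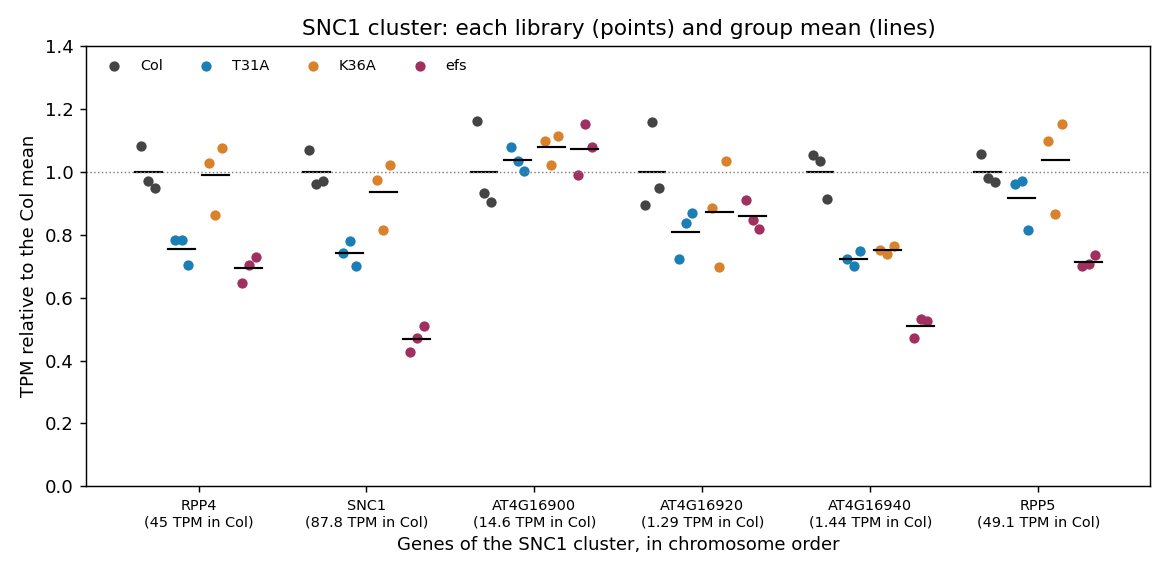
TPM of the 6 genes of the SNC1 cluster relative to their Col mean, in each library (points) with the group mean (lines), in chromosome order. SNC1 in efs lies near 0.470 of the Col mean, while AT4G16900 in each mutant spreads around 1.

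Paired receptors often work together, with 1 partner sensing and the other signalling, and both genes are commonly placed head to head. RPS4 (AT5G45250) and RRS1 (AT5G45260), the latter with a WRKY domain that baits effectors, start 27 bases apart on opposite strands. The whole stretch between their annotated starts (RefSeq, TAIR10.1, chr5:18326176-18326202, plus strand) is printed to show how little sequence separates the pair.
RPS4 to RRS1: tgagatttgagtggttgaatgtccaat
RPS4 had TPM values of 18.1, 14.8 and 16.1 (Col), 17.2, 17.7 and 14.1 (T31A), 13.6, 13.7 and 15.2 (K36A), and 14.2, 14.6 and 15.2 (efs). The 4 groups of RPS4 overlapped, and it was called in no comparison (efs minus Col -0.14, SE 0.10, adjusted p = 0.236). RRS1 had TPM values of 11.7, 9.54 and 9.09 (Col), 8.97, 9.88 and 8.22 (T31A), 7.63, 7.10 and 7.72 (K36A), and 6.08, 6.65 and 7.01 (efs). RRS1 values in K36A and efs all lay under the Col values, and T31A overlapped Col. The difference of RRS1 from Col was -0.54 (SE 0.10, adjusted p = 0.00056) in efs, -0.38 (SE 0.10, adjusted p = 0.0119) in K36A and -0.14 (SE 0.10, adjusted p = 0.333) in T31A. Whether RRS1 and RPS4 differ in their response was not tested.

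CHS3 (AT5G17890), a receptor with a LIM domain known from a chilling-sensitive mutant, and CSA1 (AT5G17880), its partner, lie head to head 3544 bases apart. CHS3 had TPM values of 25.1, 20.9 and 21.2 (Col), 16.1, 16.7 and 16.5 (T31A), 12.1, 10.11 and 12.5 (K36A), and 14.9, 15.5 and 16.6 (efs). CHS3 was below all Col values in every mutant and lowest in K36A, with T31A and efs overlapping. Its difference from Col was -0.89 (SE 0.09, adjusted p = 9.1e-06) in K36A, -0.48 (SE 0.09, adjusted p = 0.00061) in efs and -0.42 (SE 0.09, adjusted p = 0.00406) in T31A, and these calls held when any library was left out. K36A was also below T31A, with 0.48 (SE 0.09, adjusted p = 0.00143) for T31A minus K36A, and below efs, with -0.41 (SE 0.09, adjusted p = 0.00288) for K36A minus efs. CSA1 had TPM values of 14.6, 16.6 and 15.7 (Col), 17.97, 19.1 and 15.3 (T31A), 15.9, 12.9 and 15.3 (K36A), and 16.00, 17.9 and 18.7 (efs). CSA1 overlapped Col in each mutant and was called in no comparison, with -0.08 (SE 0.10, adjusted p = 0.567) in K36A. Neither gene has a repeated 64-base window. BAK1, the co-receptor kinase that this pair watches, rose in T31A (0.22, SE 0.06, adjusted p = 0.0131) and efs (0.30, SE 0.06, adjusted p = 0.00082). The sequences upstream of both starts (RefSeq, TAIR10.1) are shown since the partners gave different calls, at chr5:5916612-5916861 on the plus strand for CHS3 and chr5:5913318-5913567 on the minus strand for CSA1, with matches to the TTGAC core in capitals.
CHS3 upstream: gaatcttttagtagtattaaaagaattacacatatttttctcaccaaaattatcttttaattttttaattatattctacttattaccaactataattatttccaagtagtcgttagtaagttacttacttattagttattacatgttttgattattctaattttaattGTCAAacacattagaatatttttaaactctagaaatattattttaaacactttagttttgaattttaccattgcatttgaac
CSA1 upstream: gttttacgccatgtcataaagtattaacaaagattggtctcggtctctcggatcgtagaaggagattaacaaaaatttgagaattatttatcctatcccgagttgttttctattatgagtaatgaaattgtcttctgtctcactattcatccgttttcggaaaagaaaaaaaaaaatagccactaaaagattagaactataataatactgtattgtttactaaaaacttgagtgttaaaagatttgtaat

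RPP2A (AT4G19500) and RPP2B (AT4G19510), which are both needed for resistance to a downy mildew isolate, lie in tandem and fell in efs. RPP2A had TPM values of 39.8, 41.96 and 43.1 (Col), 38.5, 40.7 and 36.5 (T31A), 43.4, 35.4 and 47.8 (K36A), and 32.7, 34.9 and 34.7 (efs). The efs values lay under all Col values, and the histone lines overlapped Col. RPP2B had TPM values of 30.7, 28.96 and 28.8 (Col), 25.4, 28.2 and 25.4 (T31A), 28.9, 21.2 and 28.2 (K36A), and 18.6, 17.9 and 20.7 (efs). In RPP2B efs was again lowest, and T31A lay just under Col. The difference from Col in efs was -0.28 (SE 0.09, adjusted p = 0.0202) for RPP2A and -0.61 (SE 0.10, adjusted p = 0.00023) for RPP2B. The RPP2A call in efs was lost without Col replicate 3 or efs replicate 1 (adjusted p = 0.0603 and 0.0725, in that order). SOC3, which pairs with the truncated receptors CHS1 and TN2, was under the filter and untested in the main fit. SOC3 had TPM values of 0.411, 0.633 and 0.420 (Col), 0.445, 0.704 and 0.547 (T31A), 0.553, 0.441 and 0.424 (K36A), and 1.07, 1.263 and 0.885 (efs), from 18 to 51 reads per library, and its gene overlaps CHS1.

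VICTR (AT5G46520), which mediates a root response to a small molecule, its neighbour VICTL (AT5G46510) and RPS6 (AT5G46470), a receptor for a bacterial effector, share a region of chromosome 5. VICTR and VICTL are 95.6% identical over aligned coding bases, and 64.1% and 48.5% of their windows recur in the genome, so both are uncertain. VICTL also overlaps another annotated gene. VICTR had TPM values of 2.83, 2.21 and 2.30 (Col), 2.65, 3.299 and 2.84 (T31A), 2.52, 2.06 and 2.60 (K36A), and 0.866, 1.262 and 0.990 (efs). VICTR was lower in efs than in any other library, and T31A and K36A each overlapped Col. VICTL had TPM values of 8.26, 6.23 and 7.01 (Col), 8.43, 9.36 and 8.16 (T31A), 5.18, 4.76 and 5.92 (K36A), and 8.05, 8.76 and 8.49 (efs). VICTL was lowest in K36A, and its efs values overlapped Col. The called differences from Col were -0.76 (SE 0.13, adjusted p = 0.00022) for VICTR in efs and -0.37 (SE 0.11, adjusted p = 0.016) for VICTL in K36A. The VICTL call in K36A was lost without K36A replicate 2 (adjusted p = 0.0606), and with a fit of the 6 libraries alone (0.0664). VICTL in K36A was also below T31A (0.62, SE 0.11, adjusted p = 0.00056 for T31A minus K36A) and below efs (-0.59, SE 0.11, adjusted p = 0.00052 for K36A minus efs).

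RPS6 had TPM values of 29.5, 24.5 and 23.9 (Col), 27.2, 27.9 and 24.5 (T31A), 19.02, 15.03 and 20.1 (K36A), and 19.1, 18.8 and 19.1 (efs). RPS6 had no repeated window, and its values in K36A and efs lay under those of Col and T31A, which overlapped. The difference of RPS6 from Col was -0.51 (SE 0.10, adjusted p = 0.00236) in K36A, -0.43 (SE 0.10, adjusted p = 0.00372) in efs and 0.03 (SE 0.10, adjusted p = 0.852) in T31A. T31A was above both, by 0.54 (SE 0.10, adjusted p = 0.00139) against K36A and 0.46 (SE 0.10, adjusted p = 0.00283) against efs.

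The helper receptors moved in both directions. ADR1 (AT1G33560), the founder of its helper family, rose in T31A and fell in efs. ADR1 had TPM values of 3.87, 3.04 and 3.59 (Col), 6.19, 5.65 and 5.42 (T31A), 4.24, 4.39 and 4.22 (K36A), and 1.76, 1.91 and 1.85 (efs). No groups overlapped, with T31A highest and efs lowest. The difference of ADR1 from Col was 0.59 (SE 0.10, adjusted p = 0.00067) in T31A, -0.66 (SE 0.10, adjusted p = 0.0001) in efs and 0.24 (SE 0.10, adjusted p = 0.0891) in K36A, not called, and T31A minus efs was 1.25 (SE 0.10, adjusted p = 3.1e-07). ADR1 had 50 to 315 reads per library, and its T31A and efs calls against Col held when any library was left out. ADR1-L1 had TPM values of 27.6, 23.2 and 23.9 (Col), 25.1, 25.01 and 24.6 (T31A), 29.6, 27.9 and 29.7 (K36A), and 22.96, 26.01 and 24.9 (efs). ADR1-L1 (AT4G33300) was highest in K36A and otherwise overlapped Col, a difference of 0.22 (SE 0.08, adjusted p = 0.0416). The ADR1-L1 call in K36A was lost without Col replicate 2, Col replicate 3, K36A replicate 1 or K36A replicate 3 (adjusted p = 0.142, 0.116, 0.113 and 0.103, in that order), and with median-of-ratios factors, quantile normalization, a fit of the 6 libraries alone, a replicate block or median-of-ratios factors in the absence of Col replicate 1 (0.213, 0.123, 0.132, 0.0577 and 0.0921). It overlaps 3 annotated genes.

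ADR1-L2 had TPM values of 22.6, 22.4 and 25.9 (Col), 28.1, 30.96 and 29.6 (T31A), 23.9, 21.5 and 26.8 (K36A), and 20.7, 20.6 and 24.1 (efs). ADR1-L2 (AT5G04720) was above all Col values in T31A, and K36A and efs overlapped Col. The difference in T31A was 0.31 (SE 0.09, adjusted p = 0.0215). The ADR1-L2 call in T31A was lost without Col replicate 2 and without T31A replicate 2 or 3 (adjusted p = 0.0685, 0.0827 and 0.0583, in that order), and with median-of-ratios factors in the absence of Col replicate 1 (0.119). The 3 ADR1 family genes share 70.5% to 75.1% of aligned coding bases, and at most 2.52% of their windows recur in the genome.

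The tandem helpers NRG1.1 (AT5G66900) and NRG1.2 (AT5G66910), 171 bases apart and 83.8% identical over aligned coding bases, took opposite directions in efs. NRG1.1 had TPM values of 21.2, 21.1 and 20.95 (Col), 21.5, 24.3 and 20.5 (T31A), 17.8, 14.1 and 19.1 (K36A), and 14.99, 13.3 and 15.4 (efs). All K36A and efs values of NRG1.1 were below the Col values, and T31A overlapped Col. NRG1.2 had TPM values of 8.72, 8.21 and 8.43 (Col), 9.64, 10.3 and 9.57 (T31A), 10.14, 9.59 and 11.2 (K36A), and 11.7, 11.02 and 13.2 (efs). NRG1.2 values in each mutant were above the Col values, and efs reached the highest. In efs, NRG1.1 differed from Col by -0.51 (SE 0.10, adjusted p = 0.00096) and NRG1.2 by 0.45 (SE 0.09, adjusted p = 0.00064), and both calls held when any library was left out. In K36A the differences were -0.31 (SE 0.10, adjusted p = 0.0347) and 0.26 (SE 0.09, adjusted p = 0.0364). The NRG1.1 call in K36A was lost without Col replicate 1, Col replicate 2, Col replicate 3 or K36A replicate 2 (adjusted p = 0.0509, 0.0733, 0.0673 and 0.145, in that order), and with a fit of the 6 libraries alone (0.0841). Without K36A replicate 1 it lay at the threshold, with an adjusted p that rounds to 0.05. The NRG1.2 call in K36A was lost without Col replicate 2, Col replicate 3, K36A replicate 1 or K36A replicate 3 (adjusted p = 0.093, 0.0755, 0.0734 and 0.133, in that order), and with median-of-ratios factors, quantile normalization, a fit of the 6 libraries alone or median-of-ratios factors in the absence of Col replicate 1 (0.136, 0.14, 0.104 and 0.206). Under 1% of the windows of either gene recur in the genome.

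Direct comparisons of the mutants gave further calls. Between T31A and K36A, 7 NLR genes were higher and 4 lower in T31A, while 10.2% and 18.0% of all tested genes were. The 5 that held in every alternative but the 2-fold requirement were RPM1, CHS3, VICTL and RPS6, higher in T31A, and RPP4, lower. With factors set by the median of ratios, 10 were higher and 3 lower, and 48.4% of all calls were higher in place of 36.2% as deposited. Without K36A replicate 1, 7 were called in place of 11. Between T31A and efs, 15 were higher and 2 lower in T31A, against 16.7% and 22.4% of all tested genes. Between K36A and efs, 16 were higher and 5 lower in K36A, against 20.0% and 17.4%. Each mutant enters 2 of these comparisons, so they are not independent of each other.

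The W-box core was looked for in the 250 bases upstream of each annotated start, taken from RefSeq (TAIR10.1), on both strands. TTGAC occurred in 12 of the 33 windows of tested NLR genes, 36.4%, and in 45.0% of the 19859 windows of all tested protein-coding genes. The longer TTGACC or TTGACT, each of which holds the core, occurred in 10, or 30.3%, against 28.1% of all windows. VICTL had 5 cores, TAO1 4, and RPP2B and DSC1 3 each, whereas RPM1, RPP4, RPP5 and ZAR1 had none in this window. Some windows reach into a neighbouring gene, and a match is only a match of letters.

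Genes that act with NLR proteins were read from lists chosen with earlier results known. Of 9 genes of the EDS1 module and the chaperones of NLR proteins, 1 was higher and 3 lower in T31A, 2 higher and 1 lower in K36A, and 1 higher and 4 lower in efs. Of all tested genes, 15.7%, 22.6% and 31.4% were higher and 11.1%, 8.90% and 17.4% lower in these comparisons, beside which this and the following lists are small. The chaperone HSP90.1 (AT5G52640) fell from 59.97 ± 7.95 TPM to 25.4 ± 2.02 in T31A and 22.7 ± 0.339 in efs, and was at 49.99 ± 3.25 in K36A (-0.25, SE 0.09, adjusted p = 0.0497). HSP90.2 (AT5G56030), which has near-identical copies, fell in T31A (-0.46, SE 0.09, adjusted p = 0.00137) and efs (-0.67, SE 0.09, adjusted p = 2.2e-05). Their co-chaperone SGT1A (AT4G23570) fell in efs from 20.4 ± 1.60 to 7.98 ± 0.503 TPM (-1.25, SE 0.09, adjusted p = 5.9e-08), and in T31A (-0.34, SE 0.09, adjusted p = 0.0135). Of the EDS1 partners, SAG101 (AT5G14930) rose in T31A (0.63, SE 0.13, adjusted p = 0.00307) and PAD4 (AT3G52430) rose in K36A (0.49, SE 0.10, adjusted p = 0.00262) and fell in efs (-0.34, SE 0.10, adjusted p = 0.0145), while EDS1 (AT3G48090) was called in no mutant against Col. NDR1 (AT3G20600), a membrane protein needed by several CC-type receptors, rose in K36A (0.48, SE 0.11, adjusted p = 0.00517) and efs (0.54, SE 0.11, adjusted p = 0.0011). The list medians were -0.08, 0.00 and 0.02 in T31A, K36A and efs.

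Of 11 guarded proteins and receptor partners, 3 were higher and 1 lower in T31A, 1 higher and 1 lower in K36A, and 5 higher and 1 lower in efs. CRCK3 (AT2G11520), the receptor-like kinase watched by SUMM2, was the gene lower in each, at 16.3 ± 0.911 TPM (Col), 10.8 ± 0.218 (T31A), 12.3 ± 0.731 (K36A) and 12.2 ± 0.444 (efs). MEKK1 (AT4G08500), at the top of the cascade that SUMM2 monitors, rose in efs (0.44, SE 0.07, adjusted p = 0.00023) and T31A (0.25, SE 0.07, adjusted p = 0.0223), and MKK1 (AT4G26070) below it rose in K36A (0.28, SE 0.09, adjusted p = 0.0379). The median log2 differences of the list were 0.13, 0.10 and 0.21. With factors set by the median of ratios, none of this list was higher and 2 were lower in K36A, and 3 were higher and 3 lower in efs. Of 9 tested regulators of NLR genes and proteins, 1, 2 and 1 were lower in T31A, K36A and efs and none was higher. SRFR1 (AT4G37460), a negative regulator of SNC1, fell in T31A (-0.27, SE 0.08, adjusted p = 0.0232) and efs (-0.42, SE 0.08, adjusted p = 0.00072), and EDM2 (AT5G55390), which acts on RPP7 transcripts, and MUSE14 (AT5G43560), which acts in receptor turnover, fell in K36A (-0.31, SE 0.09, adjusted p = 0.0139 and -0.29, SE 0.10, adjusted p = 0.0321). CPR1 (AT4G12560), an F-box protein that lowers receptor levels, had -0.17 (SE 0.07, adjusted p = 0.0767) in T31A, and MOS9 (AT1G12530), a regulator of SNC1 and RPP4 expression, -0.21 (SE 0.10, adjusted p = 0.0944) in efs. The medians of the regulators were -0.09, -0.04 and -0.03, and with factors set by the median of ratios 2 were lower in T31A and 4 in efs. BON1 was not analysed here.

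Salicylic acid and defence output genes were read for comparison. Of 8 tested, T31A had 4 called higher, K36A 3 and efs 3, and 1 was lower in efs. The shares higher were 50%, 37.5% and 37.5%, against 15.7%, 22.6% and 31.4% of all tested genes, and the share in efs is near that of all genes. FMO1 reached 1 TPM in T31A libraries alone, and PBS3 in those of T31A and K36A alone. Both passed the filter only through groups in which they are high. The counts, shares and list medians for T31A and K36A thus rest in part on the filter and are a description only. The differences of FMO1 and PBS3 are likewise a description and are given without p-values. In T31A, CBP60G (AT5G26920), an activator of salicylic acid synthesis, rose by 1.96 (SE 0.15, adjusted p = 2.8e-07). The synthesis enzyme PBS3 (AT5G13320) stood 1.18 and FMO1 (AT1G19250) of systemic resistance 1.19 above Col there. In K36A, the transcription factor WRKY70 (AT3G56400) rose by 1.39 (SE 0.13, adjusted p = 2.9e-06) and the thaumatin-like PR5 (AT1G75040) by 1.22 (SE 0.21, adjusted p = 0.00075), and PBS3 stood 1.41 above Col. In efs, WRKY70 rose by 1.47 (SE 0.13, adjusted p = 3e-07), PR5 by 0.71 (SE 0.21, adjusted p = 0.0132) and the transporter EDS5 (AT4G39030) by 0.48 (SE 0.09, adjusted p = 0.00044), and ICS1 (AT1G74710), which makes the precursor, fell, with -0.34 (SE 0.09, adjusted p = 0.009), and rose in T31A, with 0.34 (SE 0.09, adjusted p = 0.0152). FMO1, PBS3 and PR5 were low in Col, at 0.233 ± 0.0935, 0.498 ± 0.0575 and 1.22 ± 0.583 TPM. FMO1 was at 1.81 ± 0.242 TPM in T31A, PBS3 at 2.39 ± 0.300 in T31A and 2.98 ± 0.466 in K36A. PR5 was at 4.08 ± 0.811 TPM in K36A and 2.57 ± 0.565 in efs. Their lowest libraries held 4, 12 and 9 reads, and differences in log2(TPM + 1) understate changes at such levels. SARD1, PR1 and PR2 stayed under the filter on low values and were not tested. The list medians were 0.34, 0.28 and 0.14.

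In the rest of the NLR family, calls were near evenly split in T31A and K36A and more often lower in efs, and whether this differs from the 33 listed genes was not tested. By RefSeq product text, 129 further genes encode NLR or RPW8-domain proteins, of which 93 were tested. Of these, 17 were higher and 17 lower in T31A, 12 higher and 14 lower in K36A, and 24 higher and 32 lower in efs. The shares higher were 18.3%, 12.9% and 25.8%, against 15.7%, 22.6% and 31.4% of all tested genes, and the shares lower 18.3%, 15.1% and 34.4%, against 11.1%, 8.90% and 17.4%. The medians were -0.06, -0.04 and -0.02. With factors set by the median of ratios the split in K36A was 8 higher and 28 lower. AT5G46490, a TIR-type gene between RPS6 and VICTL, fell from 22.1 ± 0.548 TPM to 10.5 ± 0.729 in T31A and 3.91 ± 0.775 in efs (-2.24, SE 0.14, adjusted p = 9.3e-09), and 21.2% of its windows recur in the genome. AT1G61300, with an NB-ARC domain and leucine-rich repeats, fell to 8.64 ± 0.663 TPM in efs from 38.8 ± 0.441 (-2.05, SE 0.08, adjusted p = 6.1e-11), to 27.3 ± 2.18 in T31A and to 23.7 ± 1.259 in K36A, with 15.9% of windows repeated. AT1G31540 fell in efs (-1.69, SE 0.12, adjusted p = 5.4e-08) and in K36A (-0.48, SE 0.12, adjusted p = 0.00877). AT1G72890 fell in efs (-1.04, SE 0.08, adjusted p = 9.4e-08) and in T31A (-0.50, SE 0.08, adjusted p = 0.00034). AT5G36930 fell in efs (-0.68, SE 0.11, adjusted p = 0.00012), in K36A (-0.55, SE 0.11, adjusted p = 0.00172) and in T31A (-0.38, SE 0.11, adjusted p = 0.017). AT5G48770, which overlaps AT5G48775, fell in K36A (-0.53, SE 0.11, adjusted p = 0.00226).

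Other family members rose. AT4G09420, a TIR-type protein without leucine-rich repeats by its product text, rose from 4.34 ± 0.531 TPM to 14.7 ± 0.831 in T31A and 10.5 ± 0.663 in efs (1.56, SE 0.09, adjusted p = 3e-08 and 1.11, SE 0.09, adjusted p = 2.6e-07), and in K36A to 5.88 ± 0.349 (0.37, SE 0.09, adjusted p = 0.00853). AT1G63860 rose in T31A (1.16, SE 0.09, adjusted p = 4.5e-07) and in efs (1.91, SE 0.09, adjusted p = 6e-10), and was at 4.13 ± 0.139 TPM in K36A against 4.23 ± 0.565 in Col. AT3G04210 rose in T31A (1.13, SE 0.08, adjusted p = 2.1e-07) and K36A (0.88, SE 0.08, adjusted p = 3.9e-06). HR4 (AT3G50480), a homologue of the RPW8 resistance proteins, rose in efs (1.37, SE 0.12, adjusted p = 4e-07), in T31A (0.54, SE 0.12, adjusted p = 0.00439) and in K36A (0.52, SE 0.12, adjusted p = 0.00532). AT5G38850 rose in efs (0.67, SE 0.11, adjusted p = 0.00012) and in K36A (0.46, SE 0.11, adjusted p = 0.00515). These genes are the largest called changes with a mean TPM of at least 5 and were picked on these libraries, so their sizes are a description.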

How the data were processed

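RNA-seq of whole seedlings was analysed in 4 genotypes with 3 libraries each, grouped by their labels. The authors deposited 1 table of TPM values, scaled to the same total in each library. Reads were trimmed with fastp 0.20.1 and aligned with HISAT2 2.1.10 to TAIR10, per the submitters' processing notes, which also name DESeq2 1.26.0. The sources used here do not give the counter, the handling of reads that match several genes or the use of strand. The TPM of each gene times its annotated span came out as whole reads within 0.05 for nearly all values, so the span with introns was the length used. These recovered reads gave 17621000 to 34098032 reads per library, which limits precision most for genes with few reads.

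Log2(TPM + 1) was fitted with limma 3.58.1 (R 4.3.3) over 12 libraries and 4 groups, with a trended prior and no block. The 19984 genes with 3 or more libraries at 1 TPM or above were tested, and p-values were two-sided and adjusted by the Benjamini-Hochberg method over all of them. A difference in log2(TPM + 1) understates the change of low genes, whereas the folds given are ratios of mean TPM. The fit was tested on simulated data. The NLR genes and the gene lists were chosen with earlier results of these data known. Values in every library are given for the named receptors, pairs and helpers and for members among the 5 largest called differences from Col, and other members by mean ± SD. In other lists, up to 3 genes with the smallest p in each mutant are named, plus RIN4, PBL2, ZED1 and EDS1, which were added afterwards as partners of described receptors. In the rest of the family, up to 3 called genes per direction and mutant with a mean TPM of at least 5 are named. Of 23916 genes, 23745 matched RefSeq TAIR10.1, the source of sequences and coordinates (Python 3.11.15, pandas 2.3.3, Biopython 1.88). Alternatives were other pseudocounts, filters, scalings, a 2-group fit, a replicate block, a 2-fold rule on TPM + 1 and leaving out each library. A limma voom fit on the recovered reads was added after seeing the data. The values of 1 tested NLR gene are not reported here, though it is in the counts.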

Additional observations from a re-analysis of the deposited data

How the results depend on the processing

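No called difference of an NLR gene changed direction under an alternative. Leaving out 1 library gave 4 to 7 called NLR genes for T31A minus Col (8 in all), 9 to 13 for K36A minus Col (13), 19 to 24 for efs minus Col (21), 7 to 11 for T31A minus K36A (11), 16 to 17 for T31A minus efs (17) and 16 to 21 for K36A minus efs (21). A fit of the 6 libraries of K36A and Col alone called 7, with fewer libraries behind the estimate of spread. Requiring a change of at least 2-fold as well left 0, 0, 2, 0, 2 and 1 in the same order of comparisons, a rule stricter by construction. Deviations of libraries from their group means were correlated across genes. The correlation was -0.244 to 0.359 over 18 same-numbered pairs and -0.342 to 0.324 over 36 other pairs. These ranges are alike, but with 3 libraries per group they cannot exclude a shared batch, and the labels name none. The fit with a replicate block called 8, 11, 21, 10, 17 and 19. The fit on recovered reads, chosen after seeing the data, called 12, 15, 21, 12, 18 and 24. Calls were also counted that held in every setting that tested their gene, the 2-fold rule aside. They numbered 4 of 8, 7 of 13, 19 of 21, 5 of 11, 15 of 17 and 16 of 21. The filter at a mean TPM of at least 5 tested 29 NLR genes and left out ADR1, VICTR and AT4G16940. Depth limits RFL1 and SOC3, with 7 to 19 and 18 to 51 reads per library. With no filter on low values both were tested, and of 35 members 3 were higher and 18 lower in efs minus Col.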
